A study of Macaca fascicularis with 20 samples.

Results

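The genes described here are 5 that act in lymphocyte homing and egress: SELPLG, S1PR1, CXCR3, CXCR6 and GRK5. Their members on the array were found as the probes whose transcript accession, without its version, belongs to one of these symbols in the RefSeq gene table of Macaca fascicularis. They amounted to 5 of 12530 genes with a matched probe and to 8 of 58659 probes: 1 each for SELPLG (transcript XM_005572152.1), S1PR1 (XM_005542570.1) and CXCR3 (XM_005593931.1), 2 for CXCR6 and 3 for GRK5. The genes were chosen from results of these same arrays. SELPLG had been seen among the genes of lowest p between each CD11b+ subset and CD27+CD11blo cells, and S1PR1 as a gene that is lower in NK cells than in B cells. Which values led to CXCR3, CXCR6 and GRK5 is not stated. In those 3 comparisons the differences of all 5 genes are therefore given as values only, without a test.

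Leukocytes leave the blood and return to it through a sequence of adhesion molecules and G protein-coupled receptors. SELPLG encodes PSGL-1, the ligand by which leukocytes bind P-selectin and other selectins on vessel walls. CXCR3 is the receptor for CXCL9, CXCL10 and CXCL11, chemokines induced by interferon-gamma, and CXCR6 is the receptor for CXCL16. S1PR1 senses sphingosine 1-phosphate, a lipid of blood and lymph, and directs the exit of T and B cells from lymphoid organs. GRK5 is a kinase that phosphorylates activated G protein-coupled receptors, after which arrestins bind them and signalling is damped. In mouse NK cells, CD11b is gained and CD27 lost during maturation.

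Natural killer (NK) cells and CD20+ B cells were sorted from thawed splenocytes of the cynomolgus macaque, with no stimulation. NK cells were NKG2A+ and CD8a+ and came from live CD45+ cells negative for CD3, CD14, CD20 and HLA-DR. Surface CD27 and CD11b divided them into CD27+CD11b+ cells (5 arrays), CD27loCD11b+ cells (5 arrays), CD27loCD11blo cells (4 arrays) and CD27+CD11blo cells (4 arrays). The B cells (2 arrays) were also HLA-DR+ and lacked NKG2A and CD8a. Each array held amplified RNA of 1 sort on a custom one-colour Agilent design. Precision is limited by how many arrays each group has. The labels call the NK arrays biological replicates and do not say which subsets came from the same animal. The animals were males and females, untreated as far as the labels say, with labelled ages of 4 to 18 years where an age was given.

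A level below is log2 of the processed signal after subtracting the array's own 75th percentile, so that 0 stands for that percentile. Levels are compared within a probe and not between genes. The 75th percentile ranged from 180 to 1897 intensity units over the 20 arrays, and 67.9% to 96.0% of probes were well above background. The dimmest arrays were CD27+CD11b+ replicate 4 (180 units) and CD27loCD11blo replicate 4 (199.6 units). Each NK subset had replicates 1 and 2 on slide 1 and replicate 3 on slide 2. Slide 2 also carried replicate 4 of both CD11blo subsets and both B cell arrays, and slide 3 carried replicates 4 and 5 of the CD11b+ subsets alone. The score of 10 NK marker genes lay between -1.63 and 0.79 on NK arrays and between -5.21 and -4.55 on B cell arrays. The score of 8 measured B cell markers lay between -1.28 and 1.53 on NK arrays and between 4.65 and 4.67 on B cell arrays. The score of 5 measured T cell markers, of 9 listed, lay between -0.73 and 0.60 on NK arrays and between -3.12 and -2.58 on B cell arrays. Among them CD3D averaged 0.19 in CD27+CD11b+, 0.71 in CD27loCD11b+, 0.78 in CD27loCD11blo, 1.34 in CD27+CD11blo and -1.74 in B cells. Whether T cells were in the NK sorts was not tested. CD27 mRNA averaged 3.85 ± 0.24 in CD27+CD11b+ cells and 4.32 ± 0.56 in CD27+CD11blo cells, against 3.17 ± 0.45 in CD27loCD11b+ cells and 3.27 ± 1.13 in CD27loCD11blo cells (SD, n = 5, 4, 5 and 4). No probe matched ITGAM, which encodes CD11b, or KLRC1 or CD8A, so those sort markers were not checked on the arrays.

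**Figure D1:**
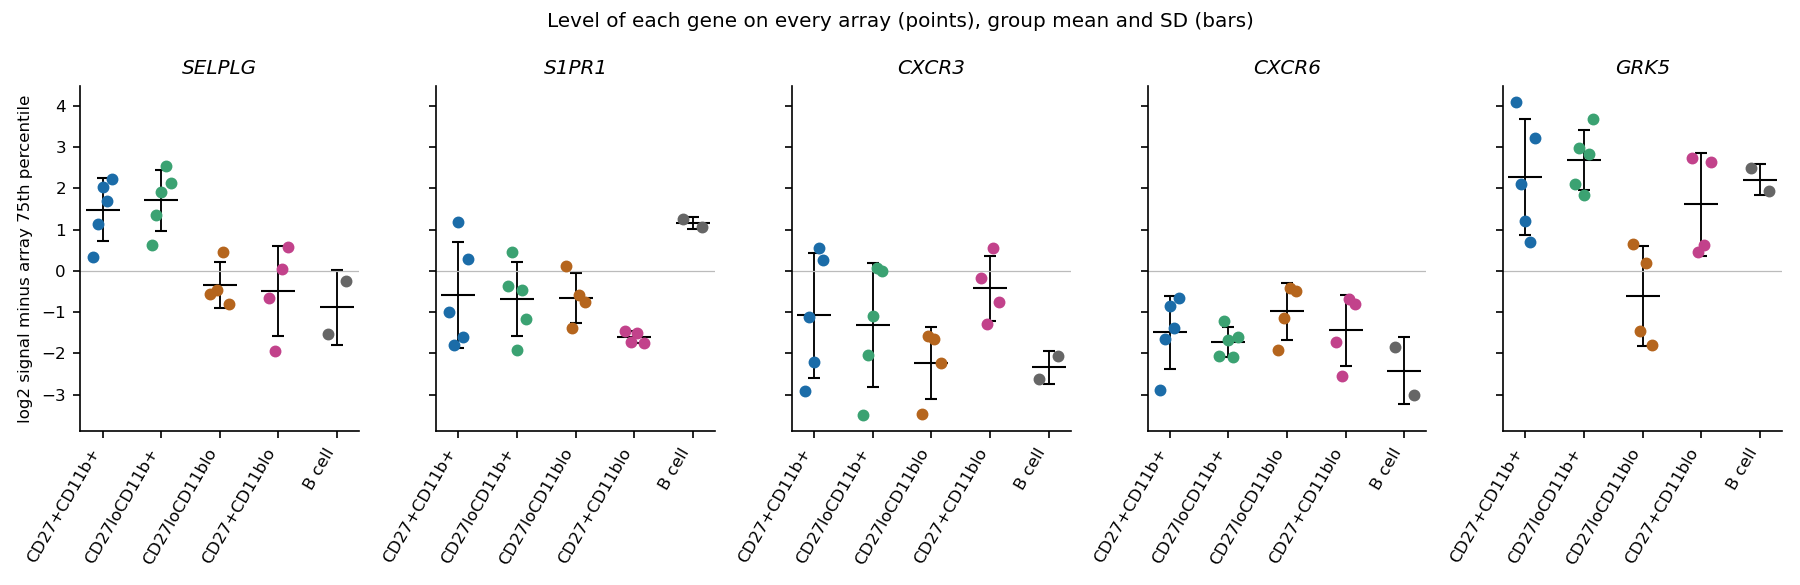
Level of each of the 5 genes on every array, on a log2 scale where 0 is the array's 75th percentile, for the 4 NK subsets and B cells. Points are arrays and bars are the group mean and SD; SELPLG is higher on the CD11b+ arrays, GRK5 is lowest in CD27loCD11blo cells, and the S1PR1 values of CD27+CD11blo cells span 0.28.

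SELPLG had its highest levels in both CD11b+ subsets. In CD27+CD11b+ cells its level was 0.34, 1.13, 2.03, 1.69 and 2.23 in replicates 1 to 5. In CD27loCD11b+ cells it was 0.63, 1.36, 1.91, 2.54 and 2.14. In CD27loCD11blo cells it was -0.57, -0.47, 0.46 and -0.80, in CD27+CD11blo cells -0.66, -1.94, 0.04 and 0.59, and in B cells -1.53 and -0.24. Of 10 CD11b+ arrays, 9 lay above every CD11blo array; the exception was CD27+CD11b+ replicate 1. Of 8 CD11blo arrays, 6 lay below every CD11b+ array. In RNA of a sort, fewer cells that express a gene and less of its RNA per cell cannot be told apart.

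The mean was 1.71 ± 0.74 in CD27loCD11b+ and 1.48 ± 0.76 in CD27+CD11b+ cells, against -0.34 ± 0.55 in CD27loCD11blo and -0.49 ± 1.09 in CD27+CD11blo cells and -0.89 ± 0.92 in B cells (SD, n = 5, 5, 4, 4 and 2). In that order, the only gap between neighbours larger than the larger of their SDs was the 1.83 between CD27+CD11b+ and CD27loCD11blo cells, and even there the ranges overlapped. Against CD27+CD11blo cells, which were used in choosing the gene, SELPLG was higher by 2.21 ± 0.53 in CD27loCD11b+ cells (log2 difference ± SE), a 4.61-fold difference, and by 1.97 ± 0.53 in CD27+CD11b+ cells. Against CD27loCD11blo cells it was higher by 2.06 ± 0.53 in CD27loCD11b+ cells (limma, adjusted p = 0.945) and by 1.83 ± 0.53 in CD27+CD11b+ cells (limma, adjusted p = 0.163). These share the CD11b+ arrays with the comparisons that chose the gene, and the difference by CD11b below contains those comparisons.

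With both CD27 classes weighted equally, SELPLG was higher by 2.02 ± 0.38 in CD11b+ than in CD11blo NK cells, given as a value only. In this comparison 0.0164% of the 12192 genes tested passed an adjusted p of 0.05 (limma), and none of the 5 genes, SELPLG included, was among them. Those called were 2 genes, PRF1 (1.95 ± 0.31), which encodes perforin, and PLEKHG3 (3.07 ± 0.41), both named after their values were seen. Neither call remained with slide as a block or with an inferred donor block. A difference of this effect between CD27+ and CD27lo cells was not detected, with an interaction of -0.08 ± 0.75 (95% interval -1.66 to 1.49). By CD27, with CD11b balanced, SELPLG differed by -0.19 ± 0.38 (95% interval -0.98 to 0.60).

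SELPLG also moved with the slide. Its mean over NK arrays was -0.02 on slide 1, 0.70 on slide 2 and 2.15 on slide 3, where only CD11b+ cells were placed. Within slide 1 the CD11b+ arrays exceeded the CD11blo arrays by 1.77, and within slide 2 by 1.89, with no overlap on either slide. With slide as a block the difference by CD11b was 1.82 ± 0.33. Without the 2 dimmest arrays it was 1.92 ± 0.41.

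In the other NK comparisons, 6 between pairs of subsets, 1 by CD27 and 1 interaction, 0% of genes passed at an adjusted p under 0.05 (limma), which covers the 5 genes outside the comparisons that chose them. Between 175 and 2711 of 12192 genes had an unadjusted p under 0.05 in these comparisons. Where the arrays of 2 groups did not overlap, the count is set beside the share of all genes that did the same. SELPLG was the 1 gene of the 5 whose CD27loCD11b+ arrays all lay above the CD27+CD11blo arrays, as 0.937% of genes did; this comparison chose the gene, so the count is a description only. SELPLG and GRK5 were the 2 genes whose CD27loCD11b+ arrays all lay above the CD27loCD11blo arrays, as 0.707% of genes did. SELPLG was chosen with these same CD27loCD11b+ arrays, and which values led to GRK5 is not stated, so this count too is a description only.

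**Figure D2:**
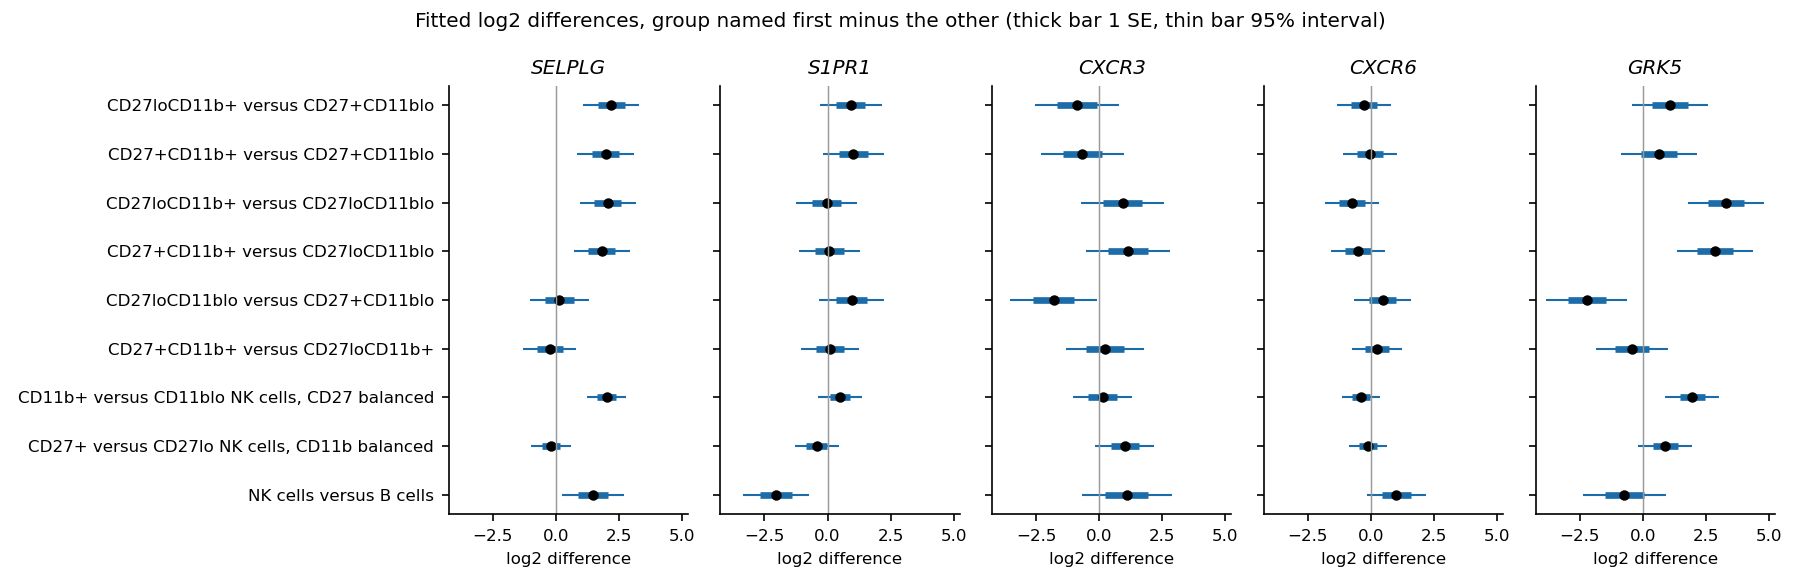
Fitted log2 differences of the 5 genes in 9 comparisons, with the group named first minus the other; dots are estimates, thick bars 1 SE and thin bars the 95% interval. In the comparisons that chose the genes, and for SELPLG by CD11b, the bars describe the fit and are not tests. The other comparisons share arrays with these, so their bars are not independent of the choice. SELPLG lies between 1.83 and 2.21 wherever a CD11b+ subset is set against a CD11blo one, GRK5 reaches 3.30 and 2.88 against CD27loCD11blo cells, and CXCR6 lies between -0.74 and 0.46 among the NK subsets.

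The genes that act with PSGL-1 were measured beside it. Of 24 adhesion genes listed 18 were measured, and of 9 measured genes that build or sulfate the sugars selectins bind, FUT7, which adds the fucose of the selectin ligand, differed by 0.10 ± 0.26 by CD11b. The sialyltransferase gene ST3GAL6 differed by -0.67 ± 0.37 and the branching enzyme gene GCNT1 by 0.32 ± 0.47. None of the 18, the 9 or the 4 selectin and PSGL-1 partner genes passed the test in any comparison among NK subsets. Their median difference by CD11b was -0.01, -0.34 and -0.05, beside -0.13 over all genes tested. VSIR, which encodes VISTA, an inhibitory receptor that binds PSGL-1 at acid pH, differed by 0.67 ± 0.48. The platelet and endothelial selectin gene SELP differed by -0.16 ± 0.28, and ITGB2, the beta subunit shared by CD11b and LFA-1, by 0.50 ± 0.31.

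CXCR3 was highest on average in CD27+CD11blo cells and lowest among NK cells in CD27loCD11blo cells. Its level was -2.91, -1.11, -2.20, 0.55 and 0.27 in CD27+CD11b+ cells and -3.50, -2.03, -1.08, 0.08 and 0.01 in CD27loCD11b+ cells. It was -3.46, -1.57, -1.64 and -2.24 in CD27loCD11blo cells, -0.18, -1.28, 0.55 and -0.75 in CD27+CD11blo cells, and -2.62 and -2.06 in B cells. Within each CD11b+ subset the arrays spanned over 3 log2 units, replicate 1 being lowest and replicates 4 and 5 highest. The means were -0.41 ± 0.79 in CD27+CD11blo, -1.08 ± 1.51 in CD27+CD11b+, -1.30 ± 1.5 in CD27loCD11b+, -2.23 ± 0.88 in CD27loCD11blo and -2.34 ± 0.39 in B cells (SD, n = 4, 5, 5, 4 and 2). In this order every pair of neighbours overlapped and no gap between them exceeded the larger of their SDs.

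All 4 CD27loCD11blo arrays lay below all 4 CD27+CD11blo arrays in CXCR3, 1 gene of the 5 against 3.74% of all genes. The difference was -1.81 ± 0.83 (95% interval -3.56 to -0.07; limma, adjusted p = 0.374), or -2.26 relative to the median difference of all genes. The CD27+CD11blo arrays were also used in the comparisons that chose the genes, and which values led to CXCR3 is not stated. The count, interval and p values of CXCR3 are therefore a description, not independent of that choice. In the same pair the NK marker score was -1.63 to -0.01 in CD27loCD11blo and -0.34 to 0.23 in CD27+CD11blo cells. The innate lymphoid marker score was 0.27 to 1.22 in CD27loCD11blo and -0.15 to 0.80 in CD27+CD11blo cells, and the monocyte and macrophage score 0.19 to 0.61 in CD27loCD11blo and -0.39 to 0.12 in CD27+CD11blo cells. The endothelial and stromal score was -0.20 to 0.70 in CD27loCD11blo and -1.33 to 0.16 in CD27+CD11blo cells. The T cell score was -0.43 to 0.60 in CD27loCD11blo and -0.41 to 0.59 in CD27+CD11blo cells. These scores are not set relative to the median difference of all genes, which was 0.45 in this pair. The part of other cells in the differences of CXCR3 and S1PR1 in this pair was not tested. Within slide 1 the CXCR3 difference was -1.78 and within slide 2 -1.84, with no overlap on either. Over both CD11b classes, CXCR3 differed by 1.02 ± 0.56 between CD27+ and CD27lo cells (limma, adjusted p = 0.258). By CD11b the difference moved with the slide: it was 0.13 ± 0.56 without a block, -0.71 ± 0.43 with slide as a block, -0.76 within slide 1 and -0.62 within slide 2. Between CD27loCD11b+ and CD27+CD11blo cells it was -0.89 ± 0.79 without and -1.72 ± 0.57 with the block. The slide means were -2.0, -1.23 and 0.23, and slide 3 held only CD11b+ arrays. Each taken on its own, slide accounted for 45.7% of the variance over NK arrays and subset for 23.3%. These shares overlap and cannot be ranked, because slide 3 held only CD11b+ arrays. The slides also held different replicates, and slide 1 was scanned on a different day from slides 2 and 3.

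For CXCR6 no difference among the subsets was detected in the comparisons tested. On its brighter probe the level was -2.90, -1.65, -0.84, -1.37 and -0.66 in CD27+CD11b+ cells and -2.07, -1.20, -1.67, -2.08 and -1.60 in CD27loCD11b+ cells. It was -1.91, -1.14, -0.41 and -0.48 in CD27loCD11blo cells, -1.73, -2.54, -0.69 and -0.81 in CD27+CD11blo cells, and -1.84 and -3.00 in B cells. The order of means was -0.98 ± 0.70 in CD27loCD11blo, -1.44 ± 0.87 in CD27+CD11blo, -1.48 ± 0.88 in CD27+CD11b+, -1.72 ± 0.36 in CD27loCD11b+ and -2.42 ± 0.81 in B cells (SD, n = 4, 4, 5, 5 and 2). No gap between neighbours exceeded the larger SD. The extreme pair among NK cells, CD27loCD11b+ against CD27loCD11blo, differed by -0.74 ± 0.51 (95% interval -1.81 to 0.33; limma, adjusted p = 0.945). Each taken on its own, slide accounted for 46.0% of the variance and subset for 14.4%, shares that overlap as for CXCR3. The slide means were -1.89, -0.82 and -1.43.

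The 2 CXCR6 probes correlated over the 20 arrays with r = 0.75 (Spearman 0.83), a description of probes that share the arrays. They lay within 0.5 of each other on 16 arrays. The gap was 2.22 in CD27+CD11b+ replicate 4, a dim array on which the second probe was not well above background. On 2 arrays with both probes well above background the second was also far lower, at -3.81 against -1.91 in CD27loCD11blo replicate 1 and at -3.67 against -1.73 in CD27+CD11blo replicate 1. On the second probe CD27loCD11blo cells were again highest, at -1.49 ± 1.57, followed by -1.84 ± 0.50 in CD27loCD11b+ cells (SD, n = 4 and 5). Its difference between CD27loCD11b+ and CD27loCD11blo cells was -0.36 ± 0.77.

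The other chemokine receptor genes gave no call among the subsets. Of 19 listed 10 were measured, with a median difference by CD11b of -0.09 (all genes -0.13) and by CD27 of -0.52 (all genes -0.37). The largest by CD11b was CCR1, a receptor for CCL3 and CCL5, at 1.16 ± 0.70. CCR6 differed by -0.08 ± 0.78 and CCR10 by -0.20 ± 0.40. Transcripts of the CXCR3 ligands are made mainly by other cells under interferon, and here CXCL9, CXCL10 and CXCL11 differed by -0.53 ± 0.49, -0.71 ± 0.73 and -0.08 ± 0.34 by CD11b. CXCL16, the CXCR6 ligand, differed by 0.66 ± 0.55. None of the 4 measured ligand-list genes passed the test in an NK comparison.

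**Figure D3:**
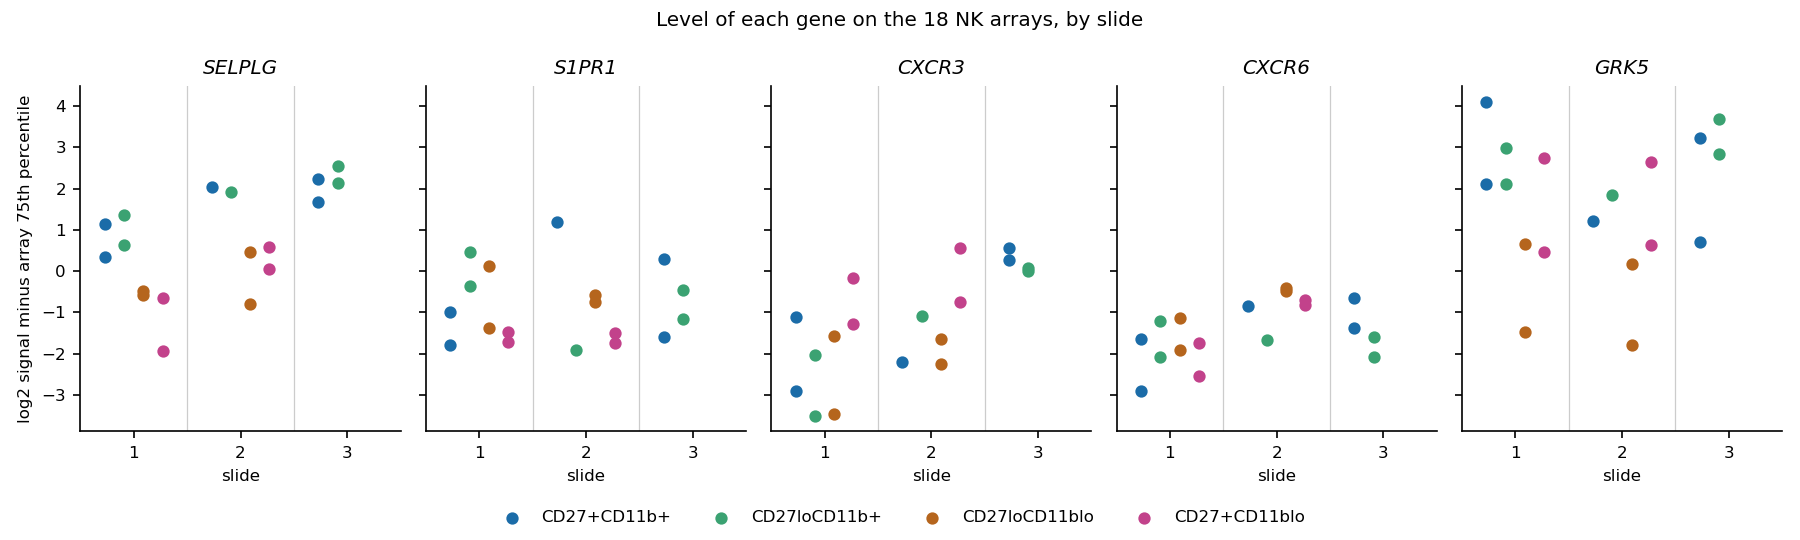
Level of each gene on the 18 NK arrays, on a log2 scale where 0 is the array's 75th percentile, by slide (x axis), with subsets in colour. SELPLG is higher in CD11b+ than CD11blo cells within slides 1 and 2, while CXCR3 is higher on slide 3, which held only CD11b+ arrays.

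S1PR1 was lower on NK than on B cell arrays, the comparison for which it was chosen. Its level was -0.99, -1.79, 1.19, -1.59 and 0.29 in CD27+CD11b+ cells and -0.36, 0.47, -1.91, -0.45 and -1.16 in CD27loCD11b+ cells. It was 0.11, -1.37, -0.58 and -0.76 in CD27loCD11blo cells, -1.46, -1.73, -1.50 and -1.74 in CD27+CD11blo cells, and 1.27 and 1.06 in B cells. Of 18 NK arrays 17 lay below both B cell arrays, and the other, CD27+CD11b+ replicate 3, lay between them. The difference was -2.04 ± 0.63, or -2.40 relative to the median of all genes. On slide 2, which held both B cell arrays, it was -1.92.

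Among NK subsets the CD27+CD11blo arrays had the lowest mean S1PR1 level and the smallest range, 0.28. The means were -0.58 ± 1.28 in CD27+CD11b+, -0.65 ± 0.61 in CD27loCD11blo, -0.68 ± 0.90 in CD27loCD11b+ and -1.61 ± 0.15 in CD27+CD11blo cells, against 1.16 ± 0.15 in B cells (SD, n = 5, 4, 5, 4 and 2). In this order B cells stood 1.74 above CD27+CD11b+ cells, and CD27loCD11b+ stood 0.92 above CD27+CD11blo cells, each more than the larger SD (1.28 and 0.90) but with overlapping ranges. All 4 CD27loCD11blo arrays lay above all 4 CD27+CD11blo arrays, 1 gene of the 5, but 16.9% of all genes did so in this pair. The difference was 0.96 ± 0.61 (limma, adjusted p = 0.394), or 0.51 relative to the median of all genes, which was 0.45. Neither CD11b+ subset was free of overlap with CD27+CD11blo cells: CD27loCD11b+ replicate 3 and CD27+CD11b+ replicate 2 lay below them all. The order of CD27+CD11b+ and CD27loCD11b+ cells turned between slides, with a difference of -1.44 within slide 1 and 3.11 between 1 array each on slide 2. Each taken on its own, slide accounted for 0.55% of the variance of S1PR1 and subset for 21.3%.

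Other genes of the sphingosine 1-phosphate axis did not pass the test in any comparison. Of 16 listed 12 were measured. S1PR5 differed by -0.29 ± 0.47 by CD11b and by 2.33 ± 0.71 between NK and B cells (limma, adjusted p = 0.0777). S1PR4 differed by 0.18 ± 0.30, S1PR2 by 0.06 ± 0.31 and S1PR3 by -0.72 ± 0.49 by CD11b. The list median was -0.13 by CD11b, as over all genes, and 0.27 between NK and B cells, where all genes had 0.36.

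GRK5 was lowest in CD27loCD11blo cells. Its level was 4.10, 2.10, 1.21, 0.70 and 3.22 in CD27+CD11b+ cells and 2.11, 2.98, 1.85, 2.83 and 3.68 in CD27loCD11b+ cells. It was 0.65, -1.47, 0.18 and -1.80 in CD27loCD11blo cells, 2.74, 0.46, 0.62 and 2.64 in CD27+CD11blo cells, and 2.49 and 1.94 in B cells. Of the other 14 NK arrays 12 lay above every CD27loCD11blo array, and the 2 that did not were CD27+CD11blo replicates 2 and 3. The means were 2.69 ± 0.73 in CD27loCD11b+, 2.27 ± 1.40 in CD27+CD11b+, 2.22 ± 0.38 in B cells, 1.61 ± 1.24 in CD27+CD11blo and -0.61 ± 1.21 in CD27loCD11blo cells (SD, n = 5, 5, 2, 4 and 4). Only the last gap, 2.22, exceeded the larger SD of the neighbours.

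GRK5 was higher by 3.30 ± 0.72 in CD27loCD11b+ than in CD27loCD11blo cells, a 9.83-fold difference (95% interval on the log2 scale 1.78 to 4.81; limma, adjusted p = 0.945), with no overlap. It was higher by 2.88 ± 0.72 in CD27+CD11b+ than in CD27loCD11blo cells (limma, adjusted p = 0.156), again with no overlap, 1 gene of the 5 against 1.36% of all genes. Between CD27loCD11blo and CD27+CD11blo cells the difference was -2.22 ± 0.76 (limma, adjusted p = 0.374). By CD11b it was 0.65 ± 0.72 in CD27+ cells, and the interaction was -2.64 ± 1.02 (95% interval -4.79 to -0.50; limma, adjusted p = 0.9997). That interaction contains the difference in CD27+ cells, which is 1 of the comparisons that chose the genes. The comparisons with CD27loCD11blo cells share arrays with those that chose the genes, and which values led to GRK5 is not stated. The counts, intervals and p values of GRK5 are therefore a description, not independent of that choice. Relative to the median difference of all genes, the 3 differences were 3.5, 3.35 and -2.67.

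Both slides that held CD27loCD11blo arrays gave GRK5 differences of the same direction. Within slides 1 and 2, CD27loCD11b+ exceeded CD27loCD11blo cells by 2.95 and 2.66, and CD27+CD11b+ cells exceeded them by 3.51 and 2.02, without overlap. Without the 2 dimmest arrays the differences were 2.90 ± 0.71 and 2.87 ± 0.75. GRK5 probes 1 and 2 correlated with r = 0.99 over 20 arrays, and probe 2 gave 3.17 ± 0.73 and 2.79 ± 0.73. Probe 3 was well above background on 14 of 20 arrays, correlated with probe 1 at r = 0.34, and gave 1.59 ± 1.08 and -0.30 ± 1.08. The dim probe 3 did not show the pattern of the other 2.

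**Figure D4:**
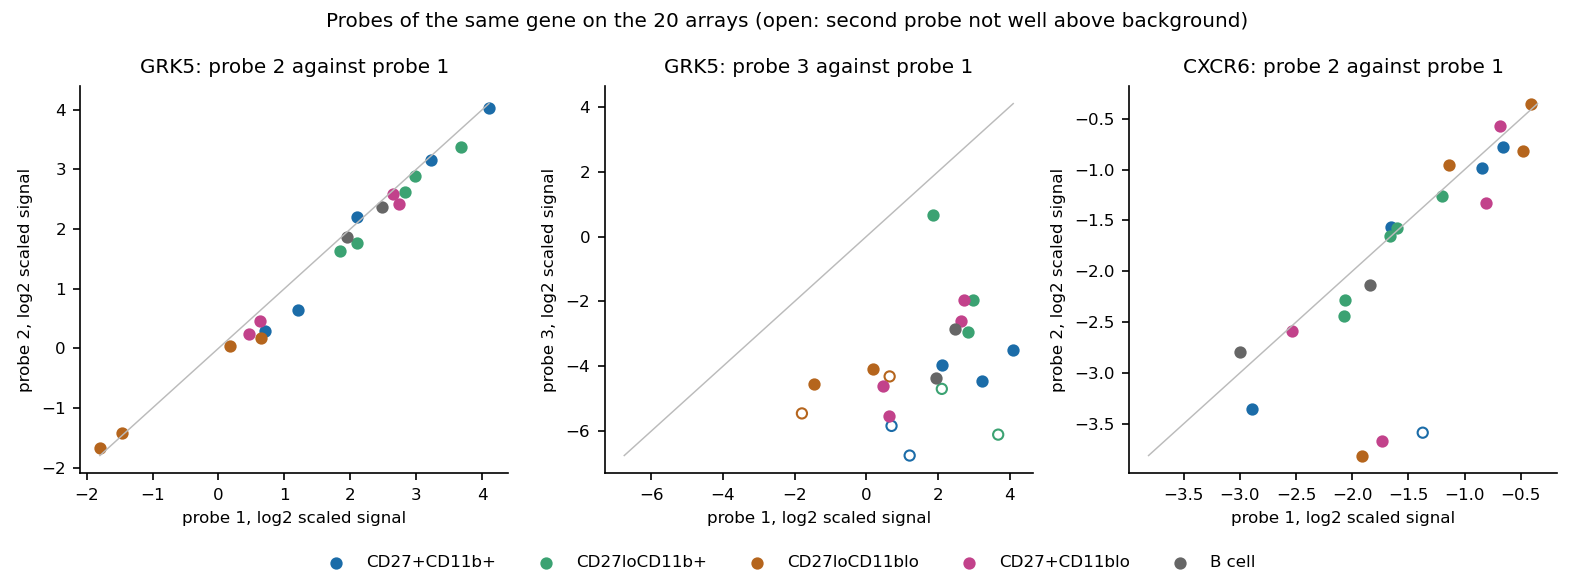
Log2 scaled signal of the probes of GRK5 and CXCR6 on the 20 arrays, probe 2 or 3 (y axis) against probe 1 (x axis), with groups in colour, open points where the plotted second probe was not well above background, and the line of equal values in grey. GRK5 probes 1 and 2 lie close to the line (r = 0.99), GRK5 probe 3 lies far below it, and 16 of 20 CXCR6 points lie within 0.5 of it.

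Marker scores differed in the subset in which GRK5 was low, but they are not set relative to the median difference of all genes. That median was 0.45 for CD27loCD11blo minus CD27+CD11blo cells. It was -0.47 for CD27+CD11b+ minus CD27loCD11blo cells and -0.20 for CD27loCD11b+ minus CD27loCD11blo cells. The score of 10 NK markers was -1.63 to -0.01 in CD27loCD11blo cells, against -0.18 to 0.73 in CD27+CD11b+, -0.60 to 0.79 in CD27loCD11b+ and -0.34 to 0.23 in CD27+CD11blo cells. The score of 5 measured markers of innate lymphoid cells, of 7 listed, was 0.27 to 1.22 in CD27loCD11blo cells. It was -1.32 to -0.34 in CD27+CD11b+, -0.73 to 0.37 in CD27loCD11b+ and -0.15 to 0.80 in CD27+CD11blo cells. IL23R was well above background on 3 of 4 CD27loCD11blo arrays and on 0 of 5 CD27+CD11b+, 1 of 5 CD27loCD11b+ and 1 of 4 CD27+CD11blo arrays. The summed processed signal of the innate lymphoid list, in multiples of the 75th percentile, was 1.66 to 3.86 in CD27loCD11blo cells, against 0.757 to 2.37 in CD27+CD11b+, 1.36 to 2.15 in CD27loCD11b+ and 2.44 to 4.29 in CD27+CD11blo cells. The score of 7 monocyte and macrophage markers was 0.19 to 0.61 in CD27loCD11blo cells, against -1.11 to 0.41 in CD27+CD11b+, -0.29 to 0.36 in CD27loCD11b+ and -0.39 to 0.12 in CD27+CD11blo cells. Whether cells of these other types were in the sorts, and their part in the GRK5 levels, was not tested.

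Other receptor kinases and arrestins were measured beside GRK5. Of 10 listed 6 were measured and none passed the test in an NK comparison. GRK6, a kinase of the same family, differed by 0.72 ± 0.60 by CD11b and by -1.75 ± 0.89 between CD27loCD11blo and CD27+CD11blo cells. ARRB1, which encodes beta-arrestin 1, differed by -0.22 ± 0.85 by CD11b. TXNIP, an arrestin-fold protein that limits glucose uptake, differed by 1.31 ± 0.36. Of 18 G protein and RGS genes 14 were measured, with a median by CD11b of -0.43, and GNAI1, GNAI3 and GNAO1 differed by -0.80 ± 0.72, -0.84 ± 0.29 and -0.41 ± 0.36. Of 16 genes of migration motors and their exchange factors 10 were measured, with a median of 0.27, and ELMO1, a partner of DOCK2 in Rac activation, differed by 1.55 ± 0.68. DOCK8, RAC2 and RAP1B differed by -0.07 ± 0.36, 0.33 ± 0.35 and -0.66 ± 0.75.

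Against B cells, the 5 genes are described by values only. NK cells were higher by 1.48 ± 0.59 in SELPLG, by 1.08 ± 0.85 in CXCR3 and by 1.01 ± 0.56 in CXCR6, and lower in S1PR1 as above. GRK5 differed by -0.72 ± 0.78. Without B cell replicate 1 the differences of SELPLG, CXCR6 and GRK5 were 0.83, 1.59 and -0.45, and without B cell replicate 2 that of CXCR6 was 0.44. The B cell arrays were 2 in number and lay on slide 2, where the differences of SELPLG, CXCR3, CXCR6 and GRK5 were 1.91, 1.01, 1.49 and -1.24. In this comparison 2.92% of 12388 genes passed; 213 were higher in NK cells and 149 lower, against 89 higher and 163 lower with quantile normalization. The median of all genes was 0.36.

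Of 87 list genes measured, 7 passed the test between NK and B cells, and 5 of them are described here. Lower in NK cells was CXCR5 (-3.23 ± 0.59, limma adjusted p = 0.00312), the receptor that guides B cells into follicles. Higher were GNAQ (2.93 ± 0.71, limma adjusted p = 0.0294), RGS3 (2.63 ± 0.70, adjusted p = 0.0478) and GNAI3 (1.87 ± 0.45, adjusted p = 0.0294). GRK7, known as a kinase of cone photoreceptors, was higher in measured signal (limma, adjusted p = 0.0345). Its probe was well above background on 13 of 18 NK arrays and on neither B cell array. With the B cell arrays set at their background level, GRK7 was 2.13-fold higher in NK cells. That fold keeps the measured signal of NK arrays not well above background, so it is not a strict bound. Of the kinases and arrestins 1 was higher, and of the G protein and RGS genes 3 were higher.

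The 5 genes did not form one pattern over the 18 NK arrays, which share slides and scaling. The closest pair was SELPLG and GRK5, with r = 0.53 (Spearman 0.57), and the most opposed were CXCR6 and GRK5, at r = -0.41. The genes most like each in level, among 12167 with a value on every NK array, were found by Pearson r. For SELPLG they were TSPAN2 (0.85), a tetraspanin, GZMH (0.81), a granzyme of killer cells, and PDGFRB (0.75), a growth factor receptor of stromal cells; 99% of genes lay below 0.52. For CXCR3 they were PLCG1 (0.81), GNAS (0.80) and LOC102141485 (0.80), with 99% below 0.62. For CXCR6 they were LOC102121055 (0.80), ST6GALNAC2 (0.79) and TRIM54 (0.79), and for S1PR1 they were STIMATE (0.69) and PHF11 (0.68). For GRK5 they were GLRX (0.92), which encodes glutaredoxin, WNK4 (0.86), a kinase, and CCM2 (0.82). The correlation of the 5 genes with the log2 75th percentile of the array ran from -0.26 for CXCR6 to 0.39 for GRK5.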

How the data were processed

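Per the file headers, the deposited processed signals are intensity values from which background was subtracted and spatial trends removed. The submitters' processing notes name Agilent Feature Extraction 10.7.1.1 and Partek, without settings. The deposited matrix holds log2 values with nearly equal quantiles and a median of 8.02 on every array. It served as an alternative, and how it was scaled and centred beyond that is unknown.

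Control spots and outlier flags were removed, spots of a probe averaged, and probes named through the RefSeq table (20417 probes, 34.8%, to 12530 genes). Coordinates and sequences were not used here. Log2 processed signals were centred on the 75th percentile of their array. Probes entered the fit when flagged well above background on 4 or more of 18 NK arrays (2 or more of 20 with B cells), and the brightest stood for its gene. Differences came from limma 3.58.1 under R 4.3.3, by lmFit and eBayes with trend and robust. The Benjamini-Hochberg adjustment ran over all genes, with a threshold of 0.05. The fit was tested on simulated data, and tables were made with Python 3.11.15. Errors of differences are standard errors and intervals are 95% intervals of that fit. The NK with B cell comparison sets the mean of the 4 subset means against B cells. List scores are means of levels centred on the NK arrays.

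The 5 genes and the 9 pathway and 7 marker lists were chosen with earlier results of these arrays known. The genes named are the 5, the first 4 measured of each pathway list as written, list genes that passed, and the 3 of highest correlation with each of the 5; some of these are not reported here. Alternatives changed the scaling (quantile, normexp with an offset of 50, the deposited matrix), the filter, the choice of probe, blocks (slide, replicate number, inferred donor), array weights, the eBayes options and the arrays left out. The labels name no animal: the inferred donor block joins arrays of equal labelled origin, sex and age, arrays numbered 2, whose age is unknown, and arrays numbered 3, although labelled 9 to 12 years. Normexp used the spot median signal in place of the planned mean signal. For a gene below background on both B cell arrays, the fold sets those arrays at the lowest signal above background and keeps the measured NK signals.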

Additional observations from a re-analysis of the deposited data

How the results depend on the processing

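Of 50 differences of the 5 genes, 36 kept their sign in every refit of 31 or 32, and the other 14 lay between -0.42 and 0.24 as reported. Single slides, not counted among these refits, turned further signs, such as S1PR1 by CD27 (1.08 within slide 2, -0.42 over all slides). CXCR3 by CD11b was 0.13, but -0.71 with slide as a block. With array weights, 3793 of the 12192 genes tested passed the threshold between CD27+CD11b+ and CD27loCD11blo cells, against 0 without weights. Of these, 578 were higher and 3215 lower in CD27+CD11b+ cells. Among them were GRK5 (3.22, limma adjusted p = 0.0166) and SELPLG (1.61, adjusted p = 0.0275). With so large a share of all genes passing, these calls are not particular to the 5 genes. SELPLG was chosen with these CD27+CD11b+ arrays, and which values led to GRK5 is not stated. Neither p is therefore independent of the choice. Between NK and B cells, the inferred donor block gave CXCR6 2.11, against 1.01, and GRK5 -0.0084, against -0.72. The causes were not tested. The 2 dim arrays and the few arrays per group limit the precision.

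Counts of genes passing moved more. With array weights, 7 passed between CD27loCD11b+ and CD27+CD11blo cells, 1 between CD27loCD11b+ and CD27loCD11blo cells, 3793 between CD27+CD11b+ and CD27loCD11blo cells, 2 between CD27loCD11blo and CD27+CD11blo cells and 4383 by CD27, each 0 without weights. With normexp, 1 passed between CD27+CD11b+ and CD27+CD11blo cells, 3 between CD27+CD11b+ and CD27loCD11blo cells and 1 by CD27. With every probe tested, 1 passed between CD27+CD11b+ and CD27+CD11blo cells. By CD11b, where 2 passed, it was 14 with every probe, 1 with the mean of probes, 0 with a slide block, 0 with the inferred donor block, 6 with array weights, 1 with plain eBayes and 1 without the 2 dimmest arrays. Against B cells, where 362 passed, it was 1824 with every probe, 600 with a slide block, 84 with the inferred donor block and 5833 with array weights. The split of higher and lower in NK cells was 213 and 149, against 89 and 163 with quantile normalization, 98 and 157 with normexp and 88 and 166 in the deposited matrix.

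Leaving out each array gave 0 to 1 genes for CD27loCD11b+ against CD27+CD11blo, 0 to 1 for CD27+CD11b+ against CD27+CD11blo, 0 to 4 for CD27+CD11b+ against CD27loCD11blo, 1 to 4 by CD11b (4 without CD27+CD11b+ replicate 4 or CD27loCD11b+ replicate 5) and 0 to 1 by CD27. It gave 4 between CD27+CD11b+ and CD27loCD11blo cells without CD27+CD11b+ replicate 3, and 0 in the other pairs and the interaction. The median difference of all genes moved with the scaling, in that pair to -0.13 with quantile normalization, against -0.47. Against B cells it gave 56 without B cell replicate 1, 63 without B cell replicate 2, and up to 715 without CD27loCD11b+ replicate 4; the lone B cell array was then assumed to vary like the other groups.

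With the replicate number as a block, 1 gene passed by CD11b. Same-numbered arrays of different subsets deviated together in 17 of 25 pairs at r over 0.1, with a median of 0.22 and a lowest of -0.30, and 12 of 18 arrays correlated best with their own number. The median was -0.07 for different numbers. Arrays numbered 4 were labelled 5 years in the CD11b+ subsets and 18 years in the CD11blo subsets, so this number joined arrays of different labels. Every pair had to exceed 0.1 for the numbers to count as pairing the arrays, which was not met. Failing that rule does not show that the arrays are unpaired, and the main fit treated them as independent. The replicate block was not run against B cells.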
